A study of Mus musculus with 17 samples.

Results

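Innate pattern recognition receptors are the proteins with which a tissue senses microbial molecules, and 10 of their genes were followed in the mouse colon. They were taken from the table of counts by gene symbol: the Toll-like receptor genes Tlr1, Tlr2, Tlr3, Tlr4 and Tlr5, their adaptor gene Myd88, and the cytosolic NOD-like receptor genes Nod1, Nod2, Nlrp6 and Nlrp3. All 10 symbols occurred among the 23719 entries of the table, and 9 of the 10 had enough counts to be among the 14146 genes tested. Colons of 17 male mice (C57BL/6, 32 to 34 weeks of age) were sequenced for RNA in order to ask which transcripts still differ well after exposure to pyridostigmine bromide (PB), which blocks acetylcholinesterase reversibly. The 9 Control mice drank water. The 8 GWI mice, a model of Gulf War illness, were given PB at 2 mg/kg in their drinking water for 7 days and recovered without it for 21 days, with day 30 named as the time of sampling. The model exposes mice to PB alone, and the tissue layers in each colon sample are not given in the sources used here.

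Toll-like receptors span the cell surface or the endosome membrane and bind bacterial lipoproteins, lipopolysaccharide, flagellin or nucleic acids. Most of them pass the signal through Myd88 to a chain of kinases that releases the NF-kB transcription factors, while NOD-like receptors sense peptidoglycan fragments or cell damage inside the cell and some of them assemble inflammasomes, which activate caspases. In the colon, which lives beside a dense bacterial community, these receptors are found in epithelial cells as well as in macrophages and other immune cells, and they take part in barrier repair and mucus release.

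Libraries held 16744096 to 20741212 counts in Control mice (median 17761682) and 16293537 to 18389686 in GWI mice (median 17428512). Values below are CPM, counts scaled to the size of each library, after a TMM factor for differences in composition. Control replicate 9 had the lowest such factor, 0.799, and its 10 most abundant genes took 23.1% of its counts. Levels of the 10 genes were compared with each other as CPM per kilobase of exon (CPM/kb). In the marker lists the gene with the highest CPM is named without regard to length, which gives no order of transcript numbers. In the Control mice Nlrp6 had the highest mean level at 34.1 CPM/kb (SD 8.16, n = 9), followed by Tlr1 at 17.2 CPM/kb (SD 3.66), Tlr2 at 13.7 CPM/kb (SD 3.79) and Myd88 at 11.4 CPM/kb (SD 1.24). Tlr3 at 6.32 CPM/kb (SD 1.96), Tlr4 at 3.62 CPM/kb (SD 1.99) and Nod1 at 2.97 CPM/kb (SD 0.537) came next. Tlr5 stood at 1.21 CPM/kb (SD 0.307), Nod2 at 0.613 CPM/kb (SD 0.169) and Nlrp3 at 0.0297 CPM/kb (SD 0.0228). Neighbours in this order overlapped between mice, except that every Control mouse had a higher level of Nod1 than any had of Tlr5, and a higher level of Nod2 than any had of Nlrp3.

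The clearest differences between the groups were in a receptor for bacterial lipoproteins, in the flagellin receptor and in an epithelial NOD-like receptor: Tlr1, Tlr5 and Nlrp6 were higher in GWI colons. These 3 of the 9 tested genes were called higher, against 13.4% of all tested genes, and 0 were called lower, against 13.5%. A call meant an adjusted p under 0.05 (edgeR, quasi-likelihood fit, Benjamini-Hochberg over all tested genes). With upper-quartile scaling in place of TMM the split of all calls was 1214 higher and 2992 lower, beside 1889 and 1903. At an unadjusted p under 0.05, edgeR gave 5 higher and 0 lower, DESeq2 gave 3 and 0 after adjustment, and limma-voom gave 7 and 0. Over all 14146 tested genes, DESeq2 called 2171 higher and 2444 lower, and limma-voom called 3901 higher and 4175 lower. Each limma-voom call of a single gene below stands beside these larger counts. The median log2 fold change of the 9 tested genes was 0.18, beside -0.056 over all tested genes. All 3 calls end when a term for the muscle content of each sample is added to the fit, and 7 of 10 smooth muscle markers were called lower in GWI colons, as described below. In 0 of the 9 did all GWI mice lie above all Control mice, which held for 1.83% of all tested genes. In bulk tissue, fewer cells of a type and less RNA per cell cannot be told apart, and this holds for every difference given here.

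**Figure D1:**
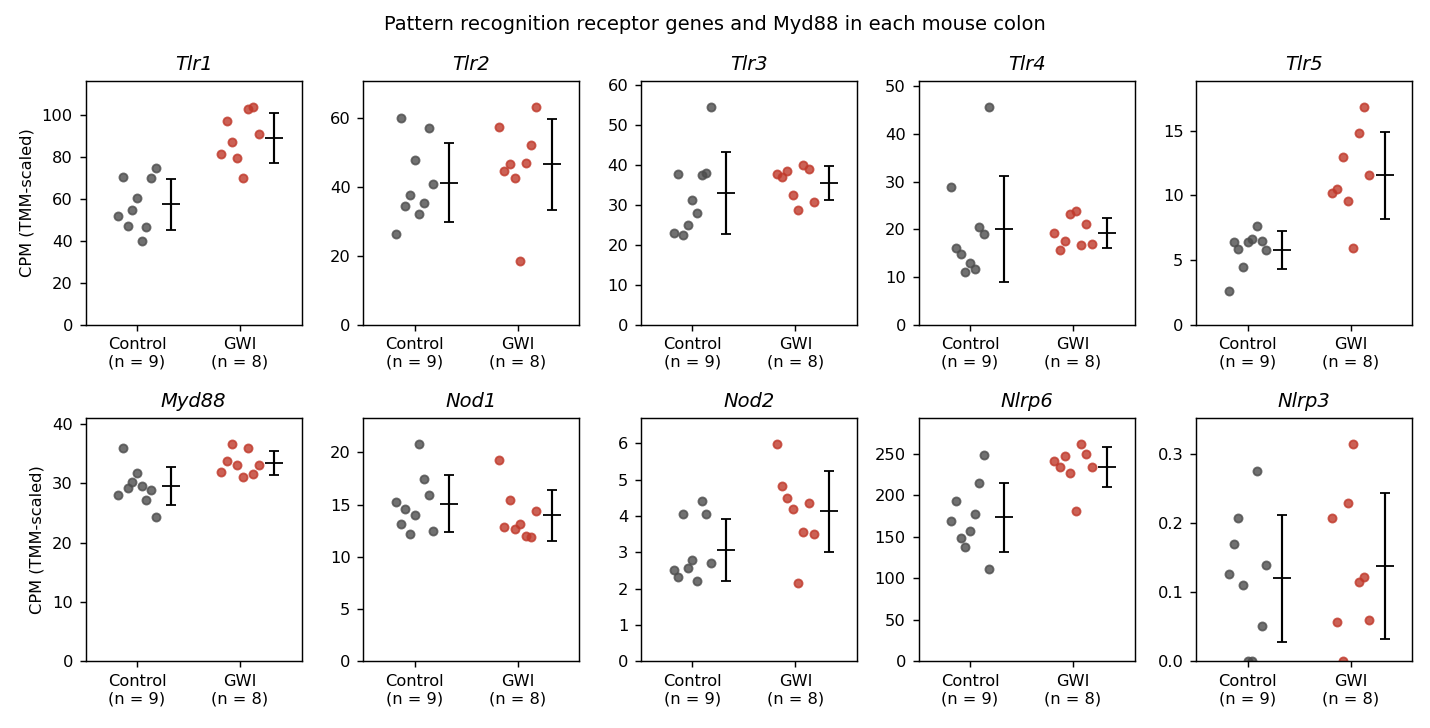
CPM of each of the 10 genes in each mouse, in 9 Control colons (grey points) and 8 GWI colons (red points), with black bars for the mean and SD of each group; every vertical axis starts at 0 and has its own scale. For Tlr1 and for Tlr5, 7 of the 8 GWI mice lie above all 9 Control mice, while the groups overlap widely for Tlr2, Tlr3, Tlr4, Nod1 and Nlrp3.

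Tlr1 forms a pair with Tlr2 that binds triacylated lipoproteins of bacteria. Its lowest, median and highest values were 40.0, 55.0 and 74.7 CPM in Control mice and 69.9, 89.2 and 104 CPM in GWI mice. All but the lowest GWI mouse, replicate 5, lay above the whole Control group. The log2 fold change was 0.64 (SE 0.12, 95% CI 0.38 to 0.90, adjusted p = 0.00238, edgeR with Benjamini-Hochberg adjustment). With the term for muscle content it was 0.27 and no longer called (adjusted p = 0.119, edgeR, Benjamini-Hochberg). Tlr1 resembles its neighbour gene Tlr6 in sequence, and reads that fit both would not enter a count of unique gene hits.

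Tlr5, the receptor for flagellin, is known in the gut for its place in epithelial and dendritic cells. It ranged from 2.59 to 7.67 CPM with a median of 6.36 CPM in Control mice, and from 5.93 to 16.8 CPM with a median of 11.0 CPM in GWI mice. Again replicate 5 alone among the GWI mice fell within the Control range, and the other 7 exceeded it. The log2 fold change of 0.99 (SE 0.20, 95% CI 0.57 to 1.42) was the largest of the 9 tested genes, and its adjusted p was 0.00302 (edgeR, Benjamini-Hochberg). The term for muscle content took it to 0.79, which was not called (adjusted p = 0.0601, edgeR, Benjamini-Hochberg). Counts behind these values lay between 41 and 274 per mouse.

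Tlr2 and Tlr4, the receptors for lipoproteins and for lipopolysaccharide, did not pass the test. Tlr2 ranged from 26.3 to 60.0 CPM (median 37.6) in Control and from 18.5 to 63.1 CPM (median 46.8) in GWI mice, with a log2 fold change of 0.17 (95% CI -0.24 to 0.59, adjusted p = 0.522, edgeR with Benjamini-Hochberg adjustment). Tlr4 ranged from 11.0 to 45.7 CPM (median 16.2) in Control and from 15.6 to 23.8 CPM (median 18.4) in GWI mice. The 2 highest Tlr4 values, 45.7 and 28.8 CPM, belonged to Control replicates 9 and 1. Its log2 fold change was -0.056 (95% CI -0.56 to 0.45, adjusted p = 0.877, edgeR with Benjamini-Hochberg adjustment) with all mice, and became 0.19 without Control replicate 9 and 0.33 without both, which again did not pass (adjusted p = 0.0790). limma-voom with quality weights gave 0.44 for Tlr4 and called it higher (adjusted p = 0.00882, Benjamini-Hochberg), whereas the edgeR fit with a term for muscle content, described below, gave -0.53 (adjusted p = 0.160, Benjamini-Hochberg). The direction of Tlr4 thus depends on the fit and on which Control mice are in it. The interval of Tlr2 includes the estimate of Nlrp6 given below, so a difference of that size in Tlr2 is not excluded.

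Tlr3, which binds double-stranded RNA in the endosome and signals without Myd88, ranged from 22.5 to 54.4 CPM (median 31.1) in Control and from 28.6 to 40.0 CPM (median 37.2) in GWI mice. The GWI values lay inside the Control range, and the top value was that of Control replicate 9. The log2 fold change was 0.11 (95% CI -0.22 to 0.43, adjusted p = 0.619, edgeR with Benjamini-Hochberg adjustment), and 6 of 8 GWI mice exceeded the Control median. It was 0.32 in limma-voom, which called it higher, and -0.31 with a term for muscle content, described below, which did not call it.

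Myd88, the adaptor that links Toll-like and interleukin receptors to their kinases, had values of 24.3 to 35.9 CPM (median 29.1) in Control and 31.0 to 36.7 CPM (median 33.1) in GWI mice. Every GWI mouse lay above the Control median, and 2 of 8 lay above all Control mice. The difference, 0.18 on the log2 scale (SE 0.075, 95% CI 0.022 to 0.34), had an adjusted p of 0.0811 (edgeR, Benjamini-Hochberg) and did not pass, while limma-voom called it higher (0.13, adjusted p = 0.0467, Benjamini-Hochberg).

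Among the cytosolic receptors, Nlrp6 is known in the intestine for its expression in enterocytes and goblet cells and for a part in mucus release. Its values ranged from 112 to 249 CPM with a median of 169 CPM in Control mice, and from 181 to 262 CPM with a median of 238 CPM in GWI mice. The groups overlapped, but all 8 GWI mice were above the Control median and 2 were above every Control mouse. The log2 fold change was 0.44 (SE 0.13, 95% CI 0.16 to 0.71, adjusted p = 0.0214, edgeR with Benjamini-Hochberg adjustment). With upper-quartile scaling the log2 fold change was 0.34 and the adjusted p 0.0601 (edgeR, Benjamini-Hochberg), which ended the call, as did the term for muscle content (0.30, adjusted p = 0.256).

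Nod1 and Nod2 sense fragments of peptidoglycan and signal through the kinase Ripk2. Nod1 had 12.1 to 20.8 CPM (median 14.5) in Control and 11.9 to 19.3 CPM (median 13.0) in GWI mice, and its log2 fold change was -0.11 (95% CI -0.37 to 0.15, adjusted p = 0.515, edgeR with Benjamini-Hochberg adjustment). Nod2, which binds muramyl dipeptide and is known from Paneth cells and myeloid cells, had 2.21 to 4.41 CPM (median 2.72) in Control and 2.14 to 5.99 CPM (median 4.27) in GWI mice. For Nod2, 7 of 8 GWI mice exceeded the Control median, and the log2 fold change of 0.43 (SE 0.20, 95% CI 0.013 to 0.84) did not pass the adjustment (adjusted p = 0.110, edgeR with Benjamini-Hochberg adjustment). limma-voom called Nod2 higher (0.53, adjusted p = 0.00840, Benjamini-Hochberg). Counts of Nod2 lay between 34 and 115 per mouse. Nlrp3, the sensor of the best studied inflammasome, had 0 to 5 counts in a mouse and 19 counts in all in each group. It was too low to be tested, and a difference in Nlrp3 was not detectable at this depth.

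Markers of the tissue's layers differed between the groups. For every list below, edgeR calls with condition alone stand beside 13.4% higher and 13.5% lower among all tested genes. DESeq2 calls stand beside 2171 higher and 2444 lower of all 14146 tested genes, and limma-voom calls beside 3901 and 4175. Of the 10 smooth muscle markers, all tested, 7 were called lower and 0 higher in GWI colons, with a median log2 fold change of -0.91 (0 higher also at an unadjusted p under 0.05 in edgeR, in DESeq2 and in limma-voom). Their summed level was 3690 to 23923 CPM (median 11584) in Control and 3658 to 11832 CPM (median 5142) in GWI mice, and Myh11, the smooth muscle myosin, had the highest CPM, at 2962 CPM (SD 1974, n = 9) and 1379 CPM (SD 579, n = 8). Of the 11 colon epithelium markers, 4 were called higher (Cdh1, Cdx2, Vil1 and Epcam) and 0 lower by edgeR, with a median log2 fold change of 0.28. Higher calls numbered 5 in edgeR at an unadjusted p under 0.05, 4 in DESeq2 and 6 in limma-voom, and lower calls 0 in each. The summed level of the 11 markers was 18382 to 40101 CPM in Control and 19570 to 36520 CPM in GWI mice, and Car1 had the highest CPM. The difference of the 2 marker lists, as mean z-scores (muscle minus epithelium), ranged from -0.68 to 2.80 in Control and from -1.80 to 0.16 in GWI mice, so that 5 GWI mice were below all Control mice and 7 Control mice above all GWI mice. With this muscle content score in the fit, edgeR called 1098 of all 14146 tested genes higher and 1613 lower. All counts with the score, here and below, stand beside these. None of the 9 tested genes was called (0 higher and 0 lower by edgeR) when this score was added to the fit, although the estimates of Tlr1, Tlr5 and Nlrp6 stayed positive. They were then 0.27 (SE 0.12) for Tlr1, 0.79 (SE 0.29) for Tlr5 and 0.30 (SE 0.18) for Nlrp6, with adjusted p of 0.119, 0.0601 and 0.256 (edgeR, Benjamini-Hochberg). At an unadjusted p under 0.05, 2 of the 9, Tlr1 and Tlr5, passed in this edgeR fit, and DESeq2 and limma-voom were not run with this term. The score and the condition overlap, so the part of the layers in these differences cannot be told apart from that of PB.

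**Figure D2:**
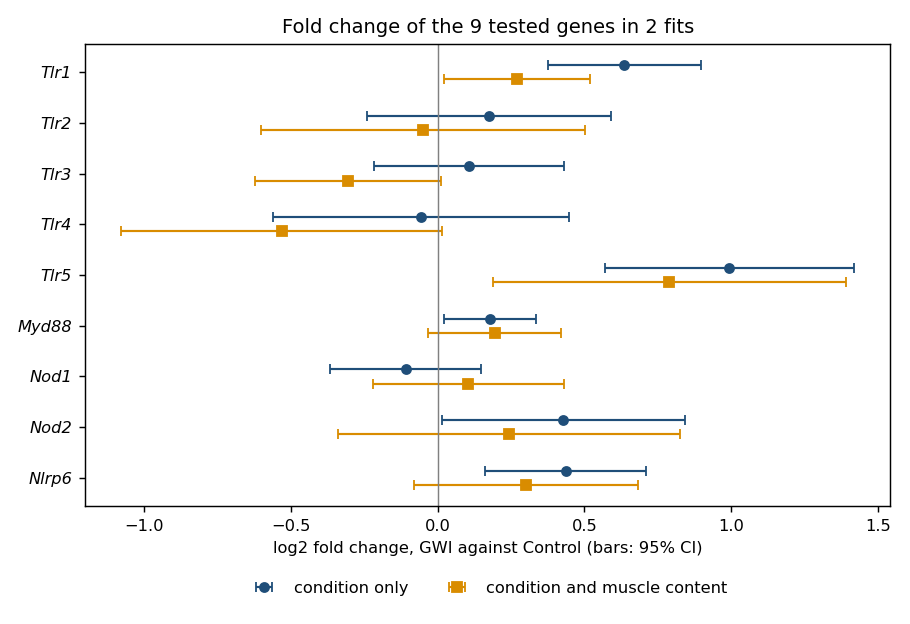
Log2 fold change of GWI against Control for the 9 tested genes with its 95% CI, from the fit with the condition alone (blue circles) and from the fit with the muscle content score as a second term (orange squares). With the second term Tlr1 moves from 0.64 to 0.27 and Tlr5 from 0.99 to 0.79, and the interval of Nlrp6 comes to include 0.

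Immune cells carry many of these receptors, and most of their markers had negative estimates. Of 11 tested macrophage entries, 10 had a negative log2 fold change, with a median of -0.35, but 1 was called higher (Mertk) and 1 lower (Mrc1) by edgeR. limma-voom called 1 higher and 8 lower, beside 3901 and 4175 of all 14146 tested genes. DESeq2 called 1 and 3, beside 2171 and 2444. Mertk, a receptor for dying cells that is not limited to macrophages, had the highest CPM of them, at 36.4 CPM (SD 8.68) in Control and 53.8 CPM (SD 4.90) in GWI mice. The summed level of the macrophage list was 86.7 to 119 CPM in Control and 91.8 to 113 CPM in GWI mice. Without Mertk it was 40.1 to 96.1 CPM (median 64.7) in Control and 36.3 to 57.4 CPM (median 46.6) in GWI mice, and this difference was not tested. Among dendritic cell markers 1 of 3 tested (Itgax) was lower, and Zbtb46 had the highest CPM. For neutrophils and monocytes 1 of 2 tested (Ccr2) was lower, from 2.72 CPM (SD 0.891) to 1.26 CPM (SD 0.214). Ly6g, the other tested gene, had a log2 fold change of -1.17 and was not called by edgeR. With the muscle content score in the edgeR fit, 0 macrophage and 0 dendritic cell markers were called in either direction. Ccr2 was again called lower in that fit (-0.86, adjusted p = 0.0321, edgeR, Benjamini-Hochberg). S100a9, too low to be tested, had 10 counts in all Control mice and 116 in all GWI mice, at most 67 in 1 mouse, and 6 of 8 GWI mice were above all Control mice. Counts in all Control and all GWI mice were 16 and 5 for S100a8, 52 and 20 for Csf3r, and 5 and 0 for Cxcr2. They were 83 and 76 for Ly6c2 and 2 and 2 for Mpo, and these genes were not tested either. In T cell markers 0 of 6 were called in either direction, as were 0 of 3 in B and plasma cell markers, by edgeR at adjusted or unadjusted p under 0.05, by DESeq2 and by limma-voom. Cd8a and Jchain had the highest CPM in these lists. Of the 6 mast cell markers only Kit was tested and it was not called. Kit also marks the interstitial cells of Cajal, and the other 5 had at most 7 counts in a mouse, so mast cells could not be followed.

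Among markers of other cell types, goblet cell markers had 1 of 7 called higher (14.3%, beside 13.4% of all tested genes). This was the mucin gene Muc2, which also had the highest CPM. With the muscle content score in the edgeR fit, 0 goblet cell markers were called higher and 2 lower, Agr2 and Spink4. Endothelium markers had 2 of 5 called lower (Emcn and Kdr, with Pecam1 highest in CPM) and fibroblast markers 1 of 6 (Dcn, with Col3a1 highest in CPM). With the score, 0 endothelium markers were called, while fibroblast markers had 2 called higher (Col1a1 and Col1a2) and 0 lower. Adipocyte markers had 1 of 4 called higher (Cidec, also highest in CPM), and 0 with the score. Among small intestine markers, 2 of 4 tested were called lower, Fabp6 and Anpep, and 0 with the score, while Fabp2 had the highest CPM. Control replicates 6 and 7 had 119 and 314 CPM of Fabp6 and 149.7 and 289 CPM of Anpep, whereas no other mouse exceeded 6.90 CPM of Fabp6 or 12.3 CPM of Anpep. Without these 2 mice, Tlr1, Tlr5 and Nlrp6 had log2 fold changes of 0.54, 1.09 and 0.49, all called by edgeR (adjusted p = 0.00861, 0.00611 and 0.0265, Benjamini-Hochberg). No marker of any of these lists was at 0 in every mouse.

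The other Toll-like receptor genes were scarce in this tissue. Tlr6, Tlr12 and Tlr13 were tested, and 0 of 3 were called in either direction by edgeR at adjusted or unadjusted p under 0.05, or by DESeq2, while limma-voom called 1 lower. Their mean levels in Control mice were 0.798 CPM (SD 0.266), 0.720 CPM (SD 0.219) and 0.704 CPM (SD 0.276). Tlr7, Tlr8, Tlr9 and Tlr11, which sense nucleic acids or protozoan and bacterial proteins in the endosome, had at most 20 counts in a mouse and were not tested.

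In the list of other cytosolic and lectin receptors, 23 of 24 genes were in the table and 19 were tested. Of these 6 were called higher and 2 lower in GWI colons (31.6% and 10.5%, beside 13.4% and 13.5% of all tested genes). The median log2 fold change was 0.29. Naip1, which detects the needle protein of bacterial secretion systems, had 150.0 CPM (SD 66.6) in Control and 278 CPM (SD 67.6) in GWI mice, a log2 fold change of 0.89 (SE 0.22, adjusted p = 0.00783, edgeR with Benjamini-Hochberg adjustment), with 3 of 8 GWI mice above all Control mice. The Naip genes are near copies of each other, so how their reads were shared out is uncertain. Its partner Nlrc4, which assembles the inflammasome that Naip proteins start, went from 40.0 CPM (SD 10.6) to 55.3 CPM (SD 6.88). The RNA sensors Ifih1 and Ddx58 had log2 fold changes of 0.51 (SE 0.14) and 0.33 (SE 0.11), and the inflammasome sensor Nlrp1b had 0.52 (SE 0.15). Clec7a and Clec4n, the 2 genes called lower, were the only C-type lectin receptors of this list that could be tested. Clec7a, which binds fungal beta-glucan, fell from 2.92 CPM (SD 1.01) to 1.11 CPM (SD 0.347), and all 8 GWI mice lay below all 9 Control mice, as for 0.523% of all tested genes (log2 fold change -1.39, SE 0.25, adjusted p = 0.00141, edgeR with Benjamini-Hochberg adjustment). Clec4n, which binds fungal mannans, had a log2 fold change of -0.81 (SE 0.23). With the muscle content score in the fit, 0 of the 19 were called higher and 1 lower by edgeR.

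Co-receptors and chaperones help receptors reach their place or bind their ligand. Of 8 tested, 1 was called higher and 1 lower (12.5% each, beside 13.4% and 13.5% of all tested genes). Their median log2 fold change was -0.011. Unc93b1, which carries Toll-like receptors to the endosome, rose from 32.2 CPM (SD 6.77) to 45.9 CPM (SD 6.94), with 6 of 8 GWI mice above all Control mice. Ly86, a partner of the receptor Cd180 on immune cells, fell from 1.81 CPM (SD 0.390) to 1.07 CPM (SD 0.323). Lower calls numbered 2 in DESeq2 and 3 in limma-voom. Unc93b1 was again called higher by edgeR with the muscle content score, but the gene called lower was Ly96, the partner of Tlr4, and not Ly86.

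Adaptors and kinases lie downstream of the receptors. Of 17 tested genes of this list, 8 were called higher and 0 lower (47.1% and 0%, beside 13.4% and 13.5% of all tested genes). Their median log2 fold change was 0.29. limma-voom called 1 lower, and neither edgeR at an unadjusted p under 0.05 nor DESeq2 called any lower. Irak4, the kinase that Myd88 recruits first, had 24.0, 26.7 and 33.5 CPM as lowest, median and highest values in Control mice and 34.4, 40.4 and 44.3 CPM in GWI mice. The groups did not overlap, which held for 1.83% of all tested genes in this direction, and the log2 fold change was 0.55 (SE 0.081, adjusted p = 0.000448, edgeR with Benjamini-Hochberg adjustment). Tab2, which ties ubiquitin chains to the kinase Map3k7, did not overlap either, with 99.6 to 116 CPM in Control and 128 to 148 CPM in GWI mice (log2 fold change 0.35, SE 0.061). Traf6, the ubiquitin ligase between Irak kinases and Map3k7, had a log2 fold change of 0.29 (SE 0.068). Ticam1, the adaptor of Tlr3, had 0.54 (SE 0.14), and Tbk1, the kinase that activates interferon regulatory factors, had 0.33 (SE 0.094). With the muscle content score in the fit, 5 of the 17 were called higher by edgeR, of which Traf3 was not called without it.

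The NF-kB and interferon regulatory factors at the end of these pathways gave 6 of 11 called higher and 0 lower by edgeR. These are 54.5% and 0%, beside 13.4% and 13.5% of all tested genes, and the median log2 fold change was 0.28. At an unadjusted p under 0.05 edgeR called 0 lower as well, DESeq2 called 0 and limma-voom 1. Rel, an NF-kB subunit abundant in lymphoid and myeloid cells, had a log2 fold change of 0.97 (SE 0.17), from 6.11 CPM (SD 2.14) to 11.9 CPM (SD 2.08), with 4 of 8 GWI mice above all Control mice. The subunit Relb had 0.57 (SE 0.12), its partner Nfkb2 had 0.56 (SE 0.14), and Ikbkb, the kinase that marks NF-kB inhibitors for decay, had 0.34 (SE 0.068). Irf7, which drives type I interferon genes, went from 79.2 CPM (SD 27.0) to 136 CPM (SD 36.3). In the fit with the muscle content score, 5 of the 11 were called higher by edgeR, of which Rela was not called without it.

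Among 15 negative regulators, 3 were called higher and 1 lower (20.0% and 6.67%, beside 13.4% and 13.5% of all tested genes; limma-voom called 8 and 1), and the median log2 fold change was 0.20. When the muscle content score was in the fit, edgeR called 1 higher, Nfkbib, and 1 lower, Otulin. Sigirr, a receptor that restrains Toll-like and interleukin signalling in the gut epithelium, had a log2 fold change of 0.39 (SE 0.084), with 7 of 8 GWI mice above all Control mice. The NF-kB inhibitor Nfkbib had 0.44 (SE 0.12) and the deubiquitinase Otud7b had 0.28 (SE 0.092). Otulin, which removes linear ubiquitin chains, was lower, at -0.27 (SE 0.083).

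Inflammasome partners and products gave 2 of 10 called higher and 1 lower (20.0% and 10.0%, beside 13.4% and 13.5% of all tested genes). Their median log2 fold change was 0.069. With the muscle content score in the edgeR fit, 0 were called higher and 2 lower, Casp1 and Pycard, neither of which was called without it. Txnip, a thioredoxin inhibitor that can bind Nlrp3, rose from 708 CPM (SD 247) to 1191 CPM (SD 189.7), and Gsdmd, which forms membrane pores once cut by caspases, had a log2 fold change of 0.40 (SE 0.12). Nek7, the kinase that Nlrp3 needs, fell from 105 CPM (SD 26.0) to 77.4 CPM (SD 9.77), with 7 of 8 GWI mice below all Control mice. The products Il1a and Il1b were too low to be tested.

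Cytokines and chemokines are targets of NF-kB. Of 17 genes in this list, 8 were too low to be tested, Tnf, Cxcl1, Cxcl2 and Il12b among them. Tnf had 40 counts in all Control mice and 88 in all GWI mice, and all 8 GWI mice were above the Control median. Counts in all Control and all GWI mice were 93 and 52 for Cxcl1, 81 and 56 for Cxcl5, and 28 and 6 for Ccl3. They were 29 and 22 for Il23a, 15 and 7 for Ccl4, 7 and 7 for Il12b, and 1 and 2 for Cxcl2. Of the 9 tested, 1 was called higher, Birc3, an inhibitor of cell death, at a log2 fold change of 0.44 (SE 0.14), and 0 were called lower by edgeR, with 2 lower at an unadjusted p under 0.05, 0 by DESeq2 and 2 by limma-voom. The median log2 fold change of the 9 tested was -0.41, and with the muscle content score edgeR called 0 in either direction. The entry named Il6, at 133 to 279 CPM (median 159) in Control and 155 to 333 CPM (median 158) in GWI mice, did not pass the test (adjusted p = 0.345, edgeR with Benjamini-Hochberg adjustment). It held 2110 to 5601 counts in a mouse, while Tnf and Cxcl1 held at most 17 and 22. This entry also stands out of place in the table: symbols run in alphabetical order, but the first 3 entries are Il4, Il6 and Chat, and the pair Ccl6 and Ccl5 is swapped. Why these entries were placed so is not given in the sources used here, and the files cannot show whether the values under these symbols are the counts of those genes. Without Il6 the list has 8 tested genes, 1 called higher and a median of -0.46. All 10 receptor and adaptor genes stood in their alphabetical place.

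The epithelial genes that answer to bacteria, such as Reg3b, Reg3g and Lcn2, gave 0 of 11 called in either direction by edgeR, with a median log2 fold change of 0.18. For higher levels edgeR gave 1 at an unadjusted p under 0.05, DESeq2 5 and limma-voom 7, and for lower levels all gave 0. Over all 14146 tested genes DESeq2 called 2171 higher and limma-voom 3901. Genes that handle peptidoglycan and lipopolysaccharide gave 2 of 7 called higher and 1 lower, with a median of -0.0047, and 1 higher and 0 lower with the muscle content score. Slc15a4, which carries peptides out of the lysosome, had a log2 fold change of 0.33 (SE 0.083). Alpi, the brush border phosphatase that detoxifies lipopolysaccharide, had 0.92 (SE 0.32), and its relative Alpl had -0.90 (SE 0.32). Pglyrp4 had no counts in any mouse.

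Each of the 10 is a protein-coding gene, and positions on GRCm38 were taken from GENCODE M21. Tlr1 lies at chr5:64924679-64933563 on the minus strand, Tlr5 at chr1:182954788-182976044 on the plus strand and Nlrp6 at chr7:140920902-140929192 on the plus strand. The others are Tlr2 (chr3:83836272-83841767, minus), Tlr3 (chr8:45395665-45411080, minus), Tlr4 (chr4:66827584-66930284, plus), Myd88 (chr9:119335934-119341411, minus), Nod1 (chr6:54923949-54972612, minus), Nod2 (chr8:88647315-88688474, plus) and Nlrp3 (chr11:59541568-59566956, plus). Exons of Myd88 share 290 bases, 11.3% of its exon length, with Acaa1a on the opposite strand, and those of Tlr3 share 381 bases, 7.32%, with the antisense gene Gm45542. Whether counting used the strand is not given in the sources used here, so reads from these stretches cannot be assigned to either gene.

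The 250 bases before the transcription start of the genes called higher are shown because these are the genes with a call in the fit with condition alone, taken from RefSeq on GRCm38.p6, 5′ to 3′ on the strand of the gene, with matches to a motif in capitals. For Tlr1, which has 2 listed starts, the upstream one is given (chr5:64933559-64933808, minus). Tlr5 is at chr1:182954538-182954787 (plus) and Nlrp6 at chr7:140920652-140920901 (plus). The motifs searched on both strands were the TATA box (TATAAA), the AP-1 motif (TGANTCA), the interferon-stimulated response element (2 copies of GAAA with any 2 bases between them) and the NF-kappa-B consensus.
Tlr1: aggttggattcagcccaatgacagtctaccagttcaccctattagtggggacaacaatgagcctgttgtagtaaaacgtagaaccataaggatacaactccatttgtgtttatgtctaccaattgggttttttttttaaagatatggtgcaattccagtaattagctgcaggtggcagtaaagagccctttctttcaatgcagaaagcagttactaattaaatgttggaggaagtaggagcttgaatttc
Tlr5: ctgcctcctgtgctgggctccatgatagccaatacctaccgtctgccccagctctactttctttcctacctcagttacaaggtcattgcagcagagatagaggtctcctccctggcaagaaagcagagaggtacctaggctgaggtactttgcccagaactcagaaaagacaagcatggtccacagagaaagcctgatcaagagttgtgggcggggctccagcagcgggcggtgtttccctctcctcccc
Nlrp6: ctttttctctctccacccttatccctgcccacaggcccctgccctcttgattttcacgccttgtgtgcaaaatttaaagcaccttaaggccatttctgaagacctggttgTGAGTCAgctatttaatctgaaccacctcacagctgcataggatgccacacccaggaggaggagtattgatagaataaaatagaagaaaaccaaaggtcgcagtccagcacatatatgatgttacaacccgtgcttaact
In these windows the only match was 1 AP-1 motif in Nlrp6. Its first base lies at position -140 from the start, and 6.75% of the 32851 mouse promoter windows of this length hold such a match. Promoters of 9 of the 10 genes were in the table, all but that of Tlr4. They made 12 windows, because some genes have more than 1 listed start. A gene counts as matched if any of its windows holds a match, whereas the percentages are per window. The NF-kappa-B consensus, present in 7.25% of all windows, was found for 3 of the 9 genes, Tlr2, Tlr3 and Nlrp3. Of these, edgeR called neither Tlr2 nor Tlr3, limma-voom called Tlr3 higher, and Nlrp3 was not tested. For Nlrp3 the window at chr11:59541319-59541568 held 1 match to this consensus and that at chr11:59542436-59542685 held 0. Myd88 had matches to the TATA box, present in 12.4% of windows, and to the interferon-stimulated response element, present in 2.98%. The TATA box matches began at positions -164 and -160 and overlap each other, and the response element began at -40. The Myd88 window, chr9:119340019-119340268, lies inside the span given for the gene above. Whether these motifs act on Myd88 was not tested.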

How the data were processed

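RNA from colon tissue of 17 mice was poly(A)-selected and sequenced as paired-end reads. Per the submitters' notes and the study's methods, the authors trimmed reads with Trimmomatic (0.36), mapped them to GRCm38 with STAR (2.5.2b), and deposited raw counts of unique gene hits from featureCounts, with no normalization. The annotation release and strand setting are not given in the sources used here, and the reads were not analysed here. All 17 columns matched a mouse by name, and 0 were left over. Of 23719 entries, 48 repeat a symbol and were kept apart. The order of the entries was checked, and Il4, Il6, Chat and the pair Ccl5 and Ccl6 stood out of alphabetical place. The deposited values were used as they are.

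Counts were filtered with filterByExpr, scaled by TMM, and fitted in edgeR 4.0.16 (R 4.3.3) by robust quasi-likelihood, with condition as the only term and p adjusted by Benjamini-Hochberg over 14146 genes. A gene was called at an adjusted p under 0.05. Each SE is the absolute fold change over the root of F. The steps were tested on simulated counts with equal numbers of genes raised and lowered. These held no difference in composition or tissue layers between the groups, so the effects of either could not be tested in them. Some sample names share a first part with no stated meaning, which was not modelled, so mice are treated as independent. All 136 pairs of libraries differed by more than counting noise.

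The genes and lists were chosen with earlier results of these data known. Named are all 10 genes, in each pathway list the called genes with the smallest p (at most 5 in each direction), all other Toll-like receptors, and in each marker list described the gene with the highest CPM. Other called markers, and the genes named as out of place, as examples, as untested or for their calls with the muscle content score, were chosen after their values were seen. Alternatives were 10 other planned fits, the study's own call threshold, leaving out each of 17 mice, and 2 fits chosen after seeing the data. Gene lengths and positions come from GENCODE M21, with Python 3.11.15.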

Additional observations from a re-analysis of the deposited data

Results flagged for a closer look

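Across the 20 sets of values (10 genes in each group), 3 had a mouse whose distance from its nearest neighbour was large for the spread of its group, by Dixon's test at the 95% level. Chance picks about 1 in 20 such groups. In the GWI group, replicate 5 had 18.5 CPM of Tlr2, while the next lowest mouse had 42.7 CPM. The same mouse had 181 CPM of Nlrp6, and the next lowest had 227 CPM. Replicate 5 was the lowest GWI mouse for 7 of the 10 genes and the highest for 2, Tlr4 and Nlrp3. Its summed smooth muscle markers, 11832 CPM, were the highest of the GWI mice, the next being 8419 CPM in replicate 8. By the muscle content score replicate 8 was higher (0.16 against -0.19), and its Nlrp6 level, 234 CPM, was not low. Without GWI replicate 5 the log2 fold change of Nod2 was 0.52 and called by edgeR (adjusted p = 0.0397, Benjamini-Hochberg). In the Control group, replicate 9 had 54.4 CPM of Tlr3, above the next highest mouse at 37.8 CPM. Replicate 9 also had the lowest scaling factor of all mice. The cause of these values was not tested.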

How the results depend on the processing

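Tlr1, Tlr5 and Nlrp6 were called higher by edgeR in all 17 fits that left out 1 mouse, with log2 fold changes of 0.58 to 0.70, 0.90 to 1.09 and 0.38 to 0.52 and adjusted p of at most 0.00683, 0.00881 and 0.0445 (Benjamini-Hochberg). They were also called without Control replicates 1 and 9 and without Control replicates 6 and 7, fits that were chosen after seeing the data. Of all genes, 1889 were called higher and 1903 lower. Leaving out 1 mouse gave 1472 to 2523 higher and 1309 to 2295 lower.

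Upper-quartile factors gave 1214 higher and 2992 lower, a share of higher calls of 28.9% against 49.8% with TMM, moved the median of all tested genes to -0.15, and ended the call of Nlrp6 (0.34, adjusted p = 0.0601, edgeR). limma-voom gave 3901 higher and 4175 lower and 7 of the receptor and adaptor genes higher. The muscle content score gave 1098 higher and 1613 lower and 0 of these genes. The study's threshold, an unadjusted p under 0.05 (from DESeq2 there, from edgeR here) with an absolute log2 fold change over 1, gave 92 higher, 250 lower and 0 of these genes. That 0 is narrow: Tlr5, at 0.994, exceeded 1 in 10 of the 17 fits without 1 mouse, in limma-voom (1.01) and without Control replicates 6 and 7 (1.09). For the other moves the cause was not tested.

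Signs turned only for genes that were not called by edgeR. With the muscle content score Tlr2 was -0.050, Tlr3 -0.31 and Nod1 0.10, and Nod1 was 0.0053 without Control replicates 6 and 7. Tlr4 was 0.44 and called higher in limma-voom (adjusted p = 0.00882, Benjamini-Hochberg), ranged from -0.14 to 0.19 without 1 mouse (0.043 without Control replicate 1, 0.19 without Control replicate 9), and was 0.33 without both. Myd88 was called in 1 fit without 1 mouse (Control replicate 2, adjusted p = 0.0312 in edgeR, range 0.0312 to 0.151 over the 17), and Nod2 in 1 (GWI replicate 5).

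The replicate numbers showed no sign of pairing the mice, which the labels neither state nor exclude. Of 8 same-numbered pairs, 1 had a correlation of deviations over 0.1 (range -0.51 to 0.11), and 0 Control mice correlated best with their own number. With the replicate number as a block, 1415 genes were called higher and 826 lower, Tlr4 was 0.24, and 3 of the receptor and adaptor genes were called higher.

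Of the gene list values recomputed, 1892 stayed close (a count within 1.5 times, a median within 1 SD between mice) and 223 did not. With the muscle content score, higher calls went from 6 to 0 in the other cytosolic and lectin receptors and from 2 to 0 in the inflammasome list. Depth limits Nlrp3 and the scarce Toll-like receptors, which had few counts in every mouse. With 9 and 8 mice, layers that differ between samples, the order of the table's entries and the undefined parts of the sample names bound what can be read from these differences.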
